A study of Mus musculus with 26 samples.

Results

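The Cyp2c genes encode cytochrome P450 enzymes of the endoplasmic reticulum, and 10 of them were followed in mouse liver: Cyp2c29, Cyp2c38, Cyp2c39, Cyp2c67, Cyp2c68, Cyp2c40, Cyp2c37, Cyp2c54, Cyp2c50 and Cyp2c70. They were chosen by symbol, and all 10 symbols matched a row among the 55401 genes of the count table. Livers came from male C57BL/6 mice that ate a high-fat diet for 18 weeks, beginning at an age of 4 weeks; the series design also calls this diet high in cholesterol. Mice of the UCMSC-Exos group (8 libraries, numbered 1 to 3 and 5 to 9) received exosomes derived from UCMSCs, small membrane vesicles released by cells, through the tail vein every 72 hours for 8 weeks. Untreated mice on the same diet (untreated HFD, 9 libraries) were the comparison. The labels list no injection of any kind for the untreated mice. An effect of exosomes, one of the injections themselves and one of a shared cage or cohort cannot be told apart. The diet is common to both groups, and no lean mice were analysed. The 9 samples of the third group of the series, LSCR, were not analysed here. The labels number the samples as replicate livers of a group and give no cage, litter or batch.

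Enzymes of this family insert an oxygen atom into fatty acids, drugs, steroids and other small molecules, with electrons passed on by P450 oxidoreductase. Several mouse members turn arachidonic and linoleic acid into epoxides, signalling lipids that soluble epoxide hydrolase then opens to diols, and 1 member acts on bile acids instead. Most of them are made in hepatocytes, where nuclear receptors, among them CAR, PXR and HNF4A, and the sex-dependent pattern of growth hormone release are known to set their transcription.

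The 10 genes lie in a cluster of 16 Cyp2c genes and pseudogenes that spans 1.21 Mb of chromosome 19 on mm10, from 38976647 to 40187333. From the lower end, the members run in the order Cyp2c29, Cyp2c38, Cyp2c39, Cyp2c67, Cyp2c68, Cyp2c40, Cyp2c37, Cyp2c54, Cyp2c50 and Cyp2c70. Cyp2c29 (ENSMUSG00000003053.17, plus strand) spans 39269405 to 39330713, and Cyp2c70 (ENSMUSG00000060613.10, minus strand) spans 40153353 to 40187333. Between them in the upper part are Cyp2c37 (39992424 to 40012243, plus strand), Cyp2c54 (40037940 to 40073827, minus strand) and Cyp2c50 (40089688 to 40113950, plus strand). Cyp2c38 (39389556 to 39463075, minus strand) and Cyp2c39 (39510862 to 39568529, plus strand) follow Cyp2c29, and then come Cyp2c67 (39608842 to 39649051), Cyp2c68 (39688834 to 39741054) and Cyp2c40 (39767071 to 39812814), all on the minus strand.

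The sequence before the transcription start is shown for 6 members that differ in how they behaved in the livers. RefSeq start sites on GRCm38.p6 gave 10 windows of 250 bases for 9 of the 10 members. Cyp2c39 has 2 start sites, and Cyp2c54 is named only. The lower Cyp2c39 window, chr19:39347096-39347345, lies below Cyp2c38 and outside the span given above for Cyp2c39. Capitals mark a match to CAAAGTNCA, a core motif of the nuclear receptor HNF4. Cyp2c50 (chr19:40089429-40089678 on the plus strand), Cyp2c37 (chr19:39992174-39992423 on the plus strand) and Cyp2c70 (chr19:40187287-40187536 on the minus strand) are members whose transcripts rose.
Cyp2c50: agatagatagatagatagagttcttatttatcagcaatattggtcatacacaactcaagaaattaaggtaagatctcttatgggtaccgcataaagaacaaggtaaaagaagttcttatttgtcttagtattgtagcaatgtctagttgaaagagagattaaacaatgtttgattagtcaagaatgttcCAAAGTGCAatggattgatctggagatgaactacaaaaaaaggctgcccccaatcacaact
Cyp2c37: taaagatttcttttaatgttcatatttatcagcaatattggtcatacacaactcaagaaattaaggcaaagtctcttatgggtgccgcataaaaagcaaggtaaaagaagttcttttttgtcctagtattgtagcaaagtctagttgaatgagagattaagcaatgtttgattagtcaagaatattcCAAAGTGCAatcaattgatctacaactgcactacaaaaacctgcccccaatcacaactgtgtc
Cyp2c70: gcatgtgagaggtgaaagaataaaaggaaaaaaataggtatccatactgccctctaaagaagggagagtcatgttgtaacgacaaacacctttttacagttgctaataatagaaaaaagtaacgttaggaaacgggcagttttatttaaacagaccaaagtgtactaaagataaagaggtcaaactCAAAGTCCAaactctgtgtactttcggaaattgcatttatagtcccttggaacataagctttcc
Cyp2c29 (chr19:39286835-39287084 on the plus strand) also rose, but has no match to that motif in its window. That window lies inside the span given above for Cyp2c29, and the sequence before the lower end of that span was not searched. Cyp2c67 (chr19:39649043-39649292 on the minus strand) has a match, and Cyp2c38 (chr19:39463076-39463325 on the minus strand) has none. Neither of these last genes passed the test.
Cyp2c29: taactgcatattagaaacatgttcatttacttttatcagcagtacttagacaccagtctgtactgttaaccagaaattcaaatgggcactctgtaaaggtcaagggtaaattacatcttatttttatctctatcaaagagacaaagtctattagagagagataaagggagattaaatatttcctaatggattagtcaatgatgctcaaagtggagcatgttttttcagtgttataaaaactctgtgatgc
Cyp2c67: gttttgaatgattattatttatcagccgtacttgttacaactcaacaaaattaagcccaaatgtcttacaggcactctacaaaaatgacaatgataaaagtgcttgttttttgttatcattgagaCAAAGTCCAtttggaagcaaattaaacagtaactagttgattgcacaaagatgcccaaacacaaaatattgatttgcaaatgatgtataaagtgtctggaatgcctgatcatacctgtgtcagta
Cyp2c38: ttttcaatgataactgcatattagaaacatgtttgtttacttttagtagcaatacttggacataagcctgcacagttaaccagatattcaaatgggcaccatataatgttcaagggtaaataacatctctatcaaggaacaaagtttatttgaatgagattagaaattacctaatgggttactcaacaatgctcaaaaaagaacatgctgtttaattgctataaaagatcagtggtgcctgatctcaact
The windows of Cyp2c37 and Cyp2c50 held the same letters, CAAAGTGCA, at positions -63 to -55 and -61 to -53 from the start site. The windows of Cyp2c70, Cyp2c67, Cyp2c68 and Cyp2c40 held CAAAGTCCA, at -64 to -56, -125 to -117, -77 to -69 and -45 to -37.

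Searched on both strands, CAAAGTNCA stood in 6 of the 10 member windows and in 1.19% of 32851 RefSeq windows of the same length. TGTTTAC, a core motif of FOXA factors, stood in 3 member windows, those of Cyp2c38 and both of Cyp2c39, and in 3.17% of all windows. TTGCNNAA, used for C/EBP factors, stood in the windows of Cyp2c67 and Cyp2c37 and in 9.56% of all windows. TTCNNNGAA, used for STAT5, was in none of the 10 member windows and in 7.02% of all. The longer palindrome used for HNF1 and the DR4 direct repeat used for CAR and PXR were each in none of the 10 and in 0.00913% of all windows. No match to one motif overlapped a match to another. These are letter matches in a short window and say nothing of what binds there. Around CAAAGTCCA the windows of Cyp2c67, Cyp2c68 and Cyp2c40 held nearly the same letters, as did those of Cyp2c37 and Cyp2c50 around CAAAGTGCA. The 3 member windows with TGTTTAC were also much alike around it. Matches in such windows are not independent, so the member counts cannot be weighed against the percentages of all windows.

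Of the 10 members, 9 had enough reads to be tested. In livers of the UCMSC-Exos group 5 of these 9 rose and 1 fell, by edgeR's quasi-likelihood test at an adjusted p of 0.05. Across all 16238 genes tested, 20.2% were called, 9.73% higher and 10.4% lower, and the median log2 fold change was -0.02. The median over the 9 tested members was 0.78. For none of the 9 were the 2 groups fully apart in CPM, which 1.3% of all tested genes were. The genes that rose were Cyp2c54, Cyp2c37, Cyp2c50, Cyp2c29 and Cyp2c70, 4 of which are neighbours at the upper end of the cluster. Cyp2c39 fell. Cyp2c38, Cyp2c67 and Cyp2c68 did not pass. Cyp2c40 fell below the filter on low counts in the fit of all 17 libraries and has no call there. In bulk liver RNA, fewer cells of a type and less RNA per cell cannot be told apart.

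**Figure D1:**
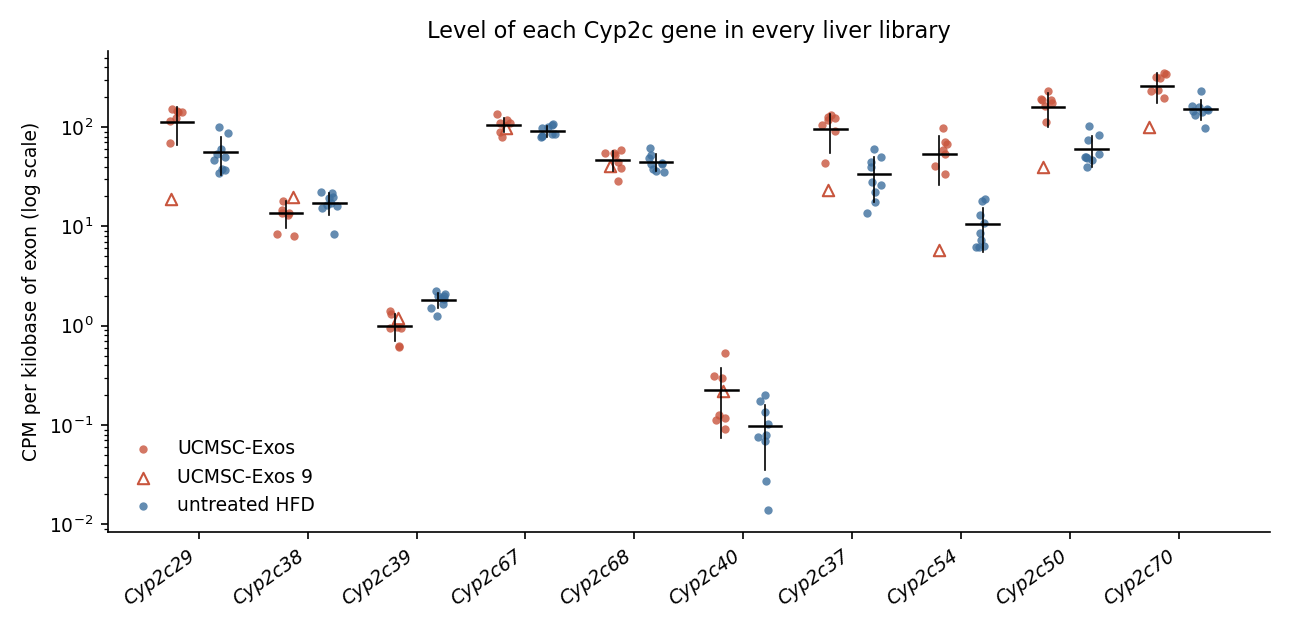
Level of each of the 10 genes in every library, as CPM (counts scaled to a fixed library size) per kilobase of exon on a log scale, with UCMSC-Exos to the left of untreated HFD; horizontal bars are means and vertical bars SDs over 8 and 9 libraries. UCMSC-Exos 9, drawn as an open triangle, lies far below the other treated libraries for Cyp2c29, Cyp2c37, Cyp2c54, Cyp2c50 and Cyp2c70.

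Libraries held 32.9 to 36.1 M counted reads. A few stood apart in their make-up, which touches the results below. UCMSC-Exos 9 had the highest summed level of 12 cholangiocyte markers, 904 CPM, and the lowest summed level of 12 hepatocyte markers in its group, 68600 CPM, against 68600 to 114000 CPM over the UCMSC-Exos libraries and 58500 to 106000 CPM over untreated HFD. Untreated HFD 3 held 14300 CPM of 12 exocrine pancreas markers, against at most 18.4 CPM in any UCMSC-Exos library. Untreated HFD 9 held 12700 CPM of 10 skeletal muscle markers, against at most 2.87 CPM in any UCMSC-Exos library. Their part in the results was not tested, and each call below was repeated without these 3 libraries.

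Cyp2c54 showed the largest fold change of the 9 tested members. Its product was described in mouse as an epoxygenase of arachidonic and linoleic acid. It averaged 95.6 ± 48.9 CPM in UCMSC-Exos livers (SD, n = 8) and 18.8 ± 8.79 CPM in untreated HFD livers (SD, n = 9). In UCMSC-Exos libraries 1, 2, 3, 5, 6, 7, 8 and 9 it stood at 105, 119, 127, 174, 60.3, 96.6, 73.1 and 10.2 CPM. In untreated HFD the lowest, median and highest values were 11, 15.4 and 33.3 CPM. All UCMSC-Exos libraries except number 9 lay above the highest untreated one, and number 9 lay below the lowest. A separation of at least 7 of 8 libraries upward was seen for 4.35% of all tested genes. The log2 fold change was 2.35 ± 0.40 (SE; edgeR adjusted p = 0.00107), and it was 2.52 (edgeR adjusted p = 1.12e-05) without UCMSC-Exos 9.

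Cyp2c50, the neighbour of Cyp2c54 and likewise described as an epoxygenase in mouse, was far more abundant. It averaged 468 ± 173 CPM in UCMSC-Exos (SD, n = 8) and 177 ± 60.8 CPM in untreated HFD (SD, n = 9). The UCMSC-Exos libraries 1, 2, 3, 5, 6, 7, 8 and 9 gave 505, 555, 546, 681, 331, 541, 469 and 116 CPM. Untreated HFD ran from 115 to 299 CPM with a median of 145 CPM. Again 7 of the 8 treated libraries stood above every untreated one, while UCMSC-Exos 9 was level with the lowest. Its log2 fold change was 1.40 ± 0.27 (SE; edgeR adjusted p = 0.0018).

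Cyp2c37, the third of these neighbours, makes hydroxylated arachidonic acid in mouse. Its mean was 174 ± 74.2 CPM in UCMSC-Exos (SD, n = 8) and 61.3 ± 28.9 CPM in untreated HFD (SD, n = 9). The UCMSC-Exos libraries in the same order gave 167, 214, 194, 241, 78.4, 222, 230 and 42.2 CPM, and untreated HFD ran from 24.9 to 109 CPM with a median of 51.2 CPM. Here 6 of 8 treated libraries exceeded the highest untreated one, and numbers 6 and 9 lay inside the untreated range. That separation was reached by 8.17% of all tested genes. The log2 fold change was 1.5 ± 0.35 (SE; edgeR adjusted p = 0.0079).

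Cyp2c29 is an arachidonic acid epoxygenase of mouse liver and a gene commonly used to read CAR activity. It averaged 346 ± 142 CPM in UCMSC-Exos (SD, n = 8) and 172 ± 70.5 CPM in untreated HFD (SD, n = 9). Its UCMSC-Exos libraries gave 353, 464, 432, 434, 209, 374, 441 and 58.1 CPM, in the order above. Untreated HFD ran from 106 to 305 CPM with a median of 151 CPM. Of the treated libraries 6 were above the untreated range, number 6 was inside it and number 9 was below it. The log2 fold change was 1.00 ± 0.32 (SE; edgeR adjusted p = 0.0365), the weakest call of the 5. It was lost in 13 of 17 fits that each left out 1 library, with adjusted p up to 0.0754. It held without UCMSC-Exos 6 (1.08, edgeR adjusted p = 0.0327), UCMSC-Exos 9 (1.17, edgeR adjusted p = 0.000756), untreated HFD 5 (1.15, edgeR adjusted p = 0.0206) or untreated HFD 8 (1.10, edgeR adjusted p = 0.0275).

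Cyp2c70 differs from the rest in what it does: in mouse liver it hydroxylates bile acids to make the muricholic acids typical of mice. It was also the most divergent transcript, with 66.6% identity to its closest member, Cyp2c50. It averaged 516 ± 170 CPM in UCMSC-Exos (SD, n = 8) and 301 ± 70.3 CPM in untreated HFD (SD, n = 9). The UCMSC-Exos libraries gave 630, 619, 699, 669, 452, 464, 392 and 199 CPM, and untreated HFD ran from 193 to 459 CPM with a median of 292 CPM. UCMSC-Exos 1, 2, 3, 5 and 7 lay above all untreated libraries, and 6, 8 and 9 lay within the untreated range. On the log2 scale the difference was 0.78 ± 0.20 (SE; edgeR adjusted p = 0.0129).

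Cyp2c39, a retinoic acid hydroxylase in mouse, was the member that fell, and it is a scarce transcript. It averaged 1.82 ± 0.533 CPM in UCMSC-Exos (SD, n = 8) and 3.33 ± 0.563 CPM in untreated HFD (SD, n = 9), from 33 to 92 reads and 78 to 143 reads per library. The UCMSC-Exos libraries gave 2.57, 1.77, 2.37, 1.14, 1.10, 1.71, 1.74 and 2.16 CPM. In untreated HFD the values ran from 2.26 to 4.03 CPM with a median of 3.46 CPM. In 6 of 8 treated libraries, number 9 among them, the level was below every untreated one, and numbers 1 and 3 overlapped the untreated range through untreated HFD 3. A separation of at least 6 of 8 downward was seen for 9.64% of tested genes. Its log2 fold change was -0.87 ± 0.18 (SE; edgeR adjusted p = 0.00317).

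Cyp2c38, next to Cyp2c39 and 93.6% identical to it, is an epoxygenase in mouse. It averaged 39.3 ± 11.9 CPM in UCMSC-Exos (SD, n = 8) and 49.7 ± 12 CPM in untreated HFD (SD, n = 9), with ranges of 23 to 57.2 CPM and 23.8 to 63.5 CPM. The log2 fold change of -0.34 ± 0.19 (SE; edgeR adjusted p = 0.212) did not pass. Without UCMSC-Exos 9 and untreated HFD 3 and 9 together it was -0.56 (edgeR adjusted p = 0.0131), which made 2 members lower in place of 1. UCMSC-Exos 9 held the highest treated level and untreated HFD 3 the lowest untreated level.

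Cyp2c67 and Cyp2c68, whose substrates are less well known, did not pass the test. Cyp2c67 averaged 183 ± 30 CPM in UCMSC-Exos (SD, n = 8) and 158 ± 19.5 CPM in untreated HFD (SD, n = 9), a log2 fold change of 0.21 ± 0.10 (SE; edgeR adjusted p = 0.132). Its treated libraries ran from 138 to 234 CPM and its untreated ones from 136 to 187 CPM, so that 4 treated libraries stood above the untreated range. Cyp2c68 averaged 80.1 ± 17.8 CPM in UCMSC-Exos (SD, n = 8) and 76.8 ± 15 CPM in untreated HFD (SD, n = 9), a log2 fold change of 0.06 ± 0.14 (SE; edgeR adjusted p = 0.779). The 2 groups overlapped almost wholly, at 49.0 to 100 CPM and 60.1 to 107 CPM. In UCMSC-Exos 9 neither gene stood apart, at 170 and 69.4 CPM.

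Cyp2c40 had 119 reads over the 8 UCMSC-Exos libraries (6 to 34 each) and 65 reads over the 9 untreated HFD libraries (1 to 14 each). The means were 0.461 ± 0.309 CPM in UCMSC-Exos and 0.198 ± 0.127 CPM in untreated HFD. The filter left it out of the fit of all 17 libraries. It was kept in 5 of the other fits, 1 with no filter and 4 without UCMSC-Exos 2, 5, 7 or 8, with log2 fold changes of 1.21 to 1.32 and edgeR adjusted p of 0.0529 to 0.106, and passed in none. Its transcript is 98.0% identical to Cyp2c68 and 97.6% to Cyp2c67, and reads that fit several places were not counted. Of its 50-base windows, 72.1% also occur in another Cyp2c transcript, so its level is uncertain. The same share was 52.8% for Cyp2c67, 43.3% for Cyp2c68, 30.7% for Cyp2c50, 30.1% for Cyp2c37, 25.7% for Cyp2c54, 11.4% for Cyp2c39, 7.4% for Cyp2c38, 2.1% for Cyp2c29 and 0% for Cyp2c70. With 100-base windows the share was 44.1% for Cyp2c40, 23.7% for Cyp2c67, 19.8% for Cyp2c68, 9.4% for Cyp2c50, 7.6% for Cyp2c54, 4.7% for Cyp2c37 and 0% for the others. Cyp2c37, Cyp2c54 and Cyp2c50, at 92.8% to 95.8% identity to their closest member, may therefore share some reads that cannot be placed. Exons of Cyp2c29 overlap those of the pseudogene Cyp2c53-ps on the same strand, and no other member shares exon bases with another gene.

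**Figure D2:**
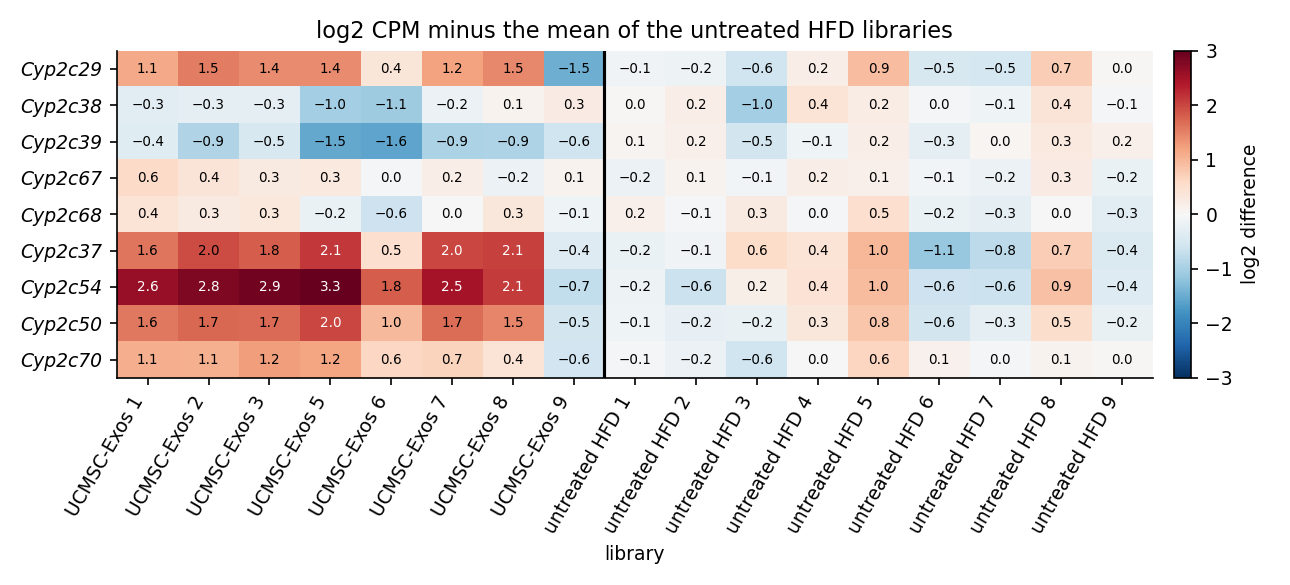
Each cell is the log2 CPM of a gene in a library minus the mean log2 CPM of the 9 untreated HFD libraries, with the UCMSC-Exos libraries left of the line; Cyp2c40 is left out for low counts, and colours stop at 3. Cyp2c37, Cyp2c54, Cyp2c50 and Cyp2c29 are high together in all UCMSC-Exos libraries but number 9, and Cyp2c39 is low in every UCMSC-Exos library.

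UCMSC-Exos 9 thus departed from its group for some members and not for others. Its levels of Cyp2c29 and Cyp2c54 were below every untreated library, and those of Cyp2c37, Cyp2c50 and Cyp2c70 were inside the untreated range. Cyp2c39, at 2.16 CPM, lay with the other treated libraries. The summed level of the 10 members was 725 CPM in UCMSC-Exos 9, the lowest of all 17 libraries, against a median of 2070 CPM over the UCMSC-Exos group and 911 CPM in untreated HFD. Over the groups this sum averaged 1900 ± 588 CPM in UCMSC-Exos (SD, n = 8) and 1020 ± 249 CPM in untreated HFD (SD, n = 9). Within untreated HFD, number 5 had the highest sum, 1550 CPM, and number 3 the lowest, 809 CPM.

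Scaled by the deposited exon length, the order of the member means differed between the groups. That length is 3061 bases for Cyp2c29 and 2918 for Cyp2c50, against 1783 and 1812 bases for their longest protein-coding transcripts. For Cyp2c67 both lengths are 1732 bases. The place of Cyp2c29 and Cyp2c50 relative to Cyp2c67, and all shares of reads per kilobase, therefore depend on the length used. In UCMSC-Exos the means were 260 CPM per kb for Cyp2c70, 160 for Cyp2c50, 113 for Cyp2c29, 106 for Cyp2c67, 95.2 for Cyp2c37, 53.5 for Cyp2c54, 46.5 for Cyp2c68, 13.7 for Cyp2c38, 1.0 for Cyp2c39 and 0.226 for Cyp2c40. In untreated HFD the means were 152 CPM per kb for Cyp2c70, 91.2 for Cyp2c67, 60.6 for Cyp2c50, 56.3 for Cyp2c29, 44.5 for Cyp2c68, 33.6 for Cyp2c37, 17.3 for Cyp2c38, 10.5 for Cyp2c54, 1.83 for Cyp2c39 and 0.0972 for Cyp2c40. In UCMSC-Exos the mean ± SD ranges of neighbours in this order overlapped from Cyp2c70 down to Cyp2c68, and did not overlap at the steps below Cyp2c68, Cyp2c38 and Cyp2c39. In untreated HFD they did not overlap at the steps below Cyp2c70, Cyp2c54 and Cyp2c39, and overlapped at the others.

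As a share of the summed reads per kilobase of the 10 genes, Cyp2c54 made up 5.82% ± 2.03 in UCMSC-Exos (SD, n = 8) and 2.17% ± 0.614 in untreated HFD (SD, n = 9). Cyp2c50 made up 18.3% ± 3.05 in UCMSC-Exos and 12.7% ± 1.6 in untreated HFD. Cyp2c67 took 13.8% ± 6.1 in UCMSC-Exos and 19.9% ± 2.58 in untreated HFD, though its own level did not pass the test. Cyp2c70 held the largest share in both groups, 30.6% ± 4.2 in UCMSC-Exos and 32.7% ± 4.84 in untreated HFD. In UCMSC-Exos 9 the shares of Cyp2c54, Cyp2c50 and Cyp2c67 were 1.65%, 11.4% and 28.3%. The ratio of Cyp2c54 to Cyp2c50, per kilobase, had a median of 0.319 in UCMSC-Exos, from 0.144 in number 9 to 0.417, against a median of 0.163 and a range of 0.127 to 0.217 in untreated HFD. The ratio of Cyp2c67 to Cyp2c68 had medians of 2.32 in UCMSC-Exos and 2.25 in untreated HFD, with overlapping ranges.

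**Figure D3:**
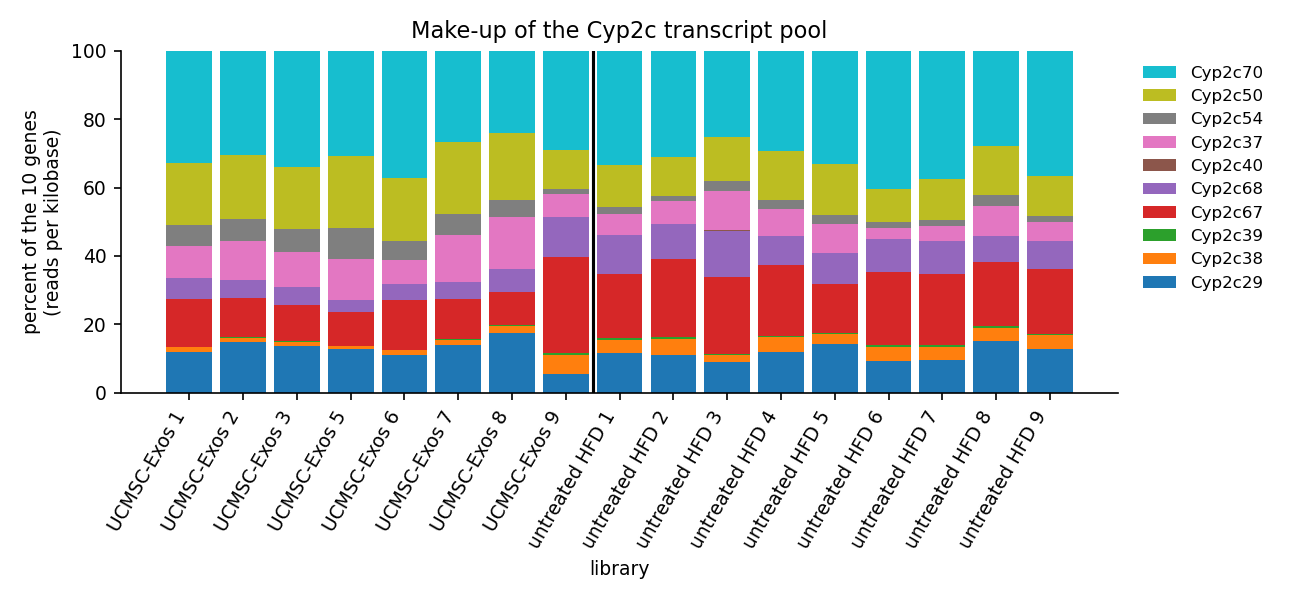
Stacked bars give the percent of summed reads per kilobase that each of the 10 genes took in every library, with the UCMSC-Exos libraries left of the line. Cyp2c54 and Cyp2c50 take a larger part in the UCMSC-Exos libraries other than number 9, where Cyp2c67 takes 28.3%.

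Along the cluster, the called rises were at Cyp2c29 and at the block from Cyp2c37 to Cyp2c70, and none of the tested genes between them was called higher. Upstream of Cyp2c29, Cyp2c55 stood at 1.67 CPM in UCMSC-Exos and 2.46 CPM in untreated HFD, a log2 fold change of -0.56 ± 0.22 (SE; edgeR adjusted p = 0.0789). It passed without UCMSC-Exos 9 (-0.64, edgeR adjusted p = 0.0354) and without untreated HFD 3 (-0.62, edgeR adjusted p = 0.0495). Cyp2c65, Cyp2c66 and Cyp2c69 were at or near 0, and Cyp2c66 had no read in any library. Cyp2c65 had 3 reads over the UCMSC-Exos libraries and 18 over the untreated ones, all 18 of them in untreated HFD 3.
The nearest tested neighbours outside the cluster were Hells, a chromatin remodeller at 5.11 CPM in UCMSC-Exos and 7.88 CPM in untreated HFD, and Pdlim1, a cytoskeletal protein at 42.9 and 43.7 CPM. Hells fell, with a log2 fold change of -0.62 ± 0.20 (SE; edgeR adjusted p = 0.0364; 0.0776 without UCMSC-Exos 3 and 0.00538 without UCMSC-Exos 9), and the log2 fold change of Pdlim1 was -0.03 ± 0.15 (SE; edgeR adjusted p = 0.919). Cyp2c23, the older Cyp2c44 and an epoxygenase, lies 3.82 Mb beyond the cluster. It averaged 249 ± 69.8 CPM in UCMSC-Exos (SD, n = 8) and 129 ± 31.6 CPM in untreated HFD (SD, n = 9), and its log2 fold change was 0.95 ± 0.18 (SE; edgeR adjusted p = 0.00155).

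**Figure D4:**
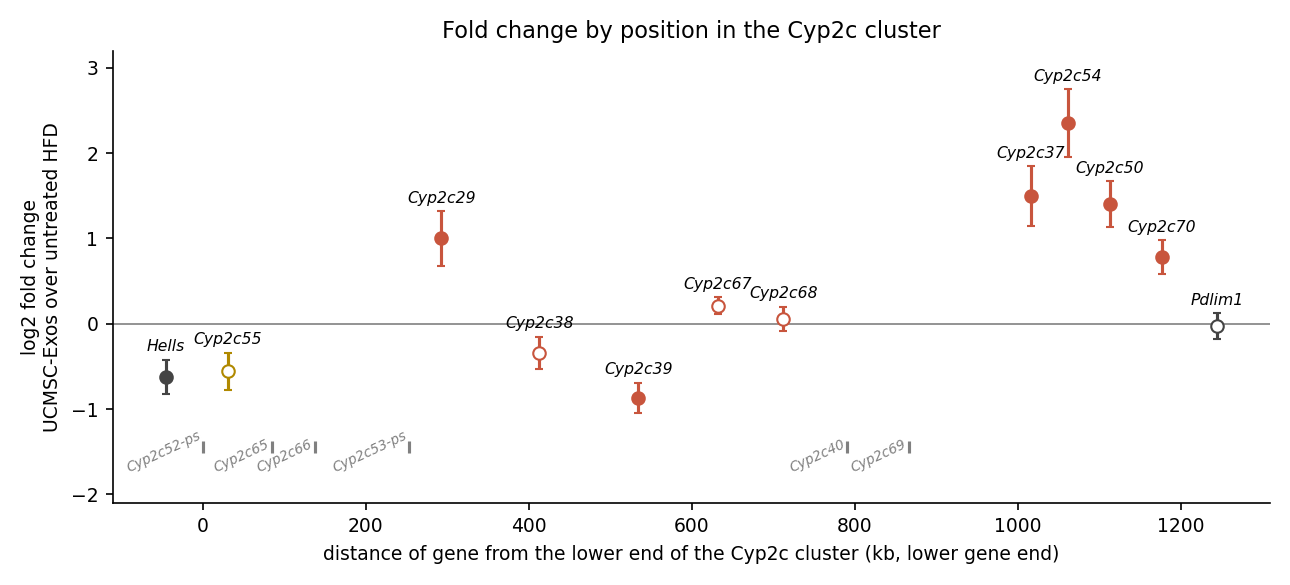
Log2 fold change, UCMSC-Exos over untreated HFD, of each tested gene by its distance in kb from the lower end of the Cyp2c cluster; bars are SEs, filled points passed an adjusted p of 0.05, red points are members, yellow Cyp2c55 and grey the nearest tested neighbours; ticks mark untested Cyp2c genes. Cyp2c37, Cyp2c54, Cyp2c50 and Cyp2c70 form a raised block at the upper end, and Cyp2c29 rises alone lower down.

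How the members varied among themselves was also seen within the 9 untreated livers, which the treatment does not touch. Across these, 34 of 36 pairs of tested members had a positive Pearson r of log2 CPM, and 4 pairs passed after Benjamini-Hochberg adjustment over 36 exact permutation tests. Pairs of other genes were not counted in these livers, so neither number can be read as a trait of the family. Cyp2c29 and Cyp2c50 gave r = 0.93 (exact permutation p = 0.0003, adjusted 0.00551) and rho = 0.87 (p = 0.00451, adjusted 0.0646, exact permutation). Cyp2c54 and Cyp2c50 gave r = 0.93 (exact permutation p = 0.000306, adjusted 0.00551) and rho = 0.90 (exact permutation p = 0.00203, adjusted 0.0646).
Cyp2c37 and Cyp2c54 gave r = 0.90 (exact permutation p = 0.00134, adjusted 0.016) and rho = 0.85 (exact permutation p = 0.00607, adjusted 0.0646). Cyp2c37 and Cyp2c50 gave r = 0.85 (exact permutation p = 0.00271, adjusted 0.0244) and rho = 0.82 (exact permutation p = 0.0108, adjusted 0.0646). No Spearman value passed after adjustment. Without the 2 livers farthest from the median of the first gene, r was 0.73, 0.80, 0.88 and 0.72 in these pairs. Untreated HFD 5 was among those left out each time and was the highest untreated library for all 4 genes. The points of a pair share their library and its scaling, and 3 of these genes share part of their sequence.

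The genes with profiles most like each member over the 17 libraries were ranked by root mean square difference of centred log2 CPM among 9047 genes with a mean of at least 10 CPM. For Cyp2c50 these were Ugt2b1, a glucuronosyltransferase (0.23), Cyp2c29 (0.32) and Mug1, a protease inhibitor of plasma (0.34). For Cyp2c29 they were Cyp2c50 (0.32), Abat, a transaminase (0.36), and Ugt2b1 (0.37). For Cyp2c37 they were Cyp2c50 (0.35), Ugt2b1 (0.48) and Cyp2c29 (0.49), and for Cyp2c54 Sult2a8, a sulfotransferase (0.42), Cyp2c50 (0.55) and Cyp2c37 (0.56).
For Cyp2c70 they were Otc, a urea cycle enzyme (0.14), Igfals, a carrier protein of insulin-like growth factors (0.15), and Slc46a3 (0.17). For Cyp2c39 they were Abcd2 (0.28), Tceal8 (0.32) and Tgfbr2 (0.33), and for Cyp2c38 Slc16a7 (0.25), Mme (0.27) and Cblb (0.27). Cyp2c67 was nearest to Ap2m1, Slc6a13 and Sntb1 (0.13 each), and Cyp2c68 to Bmp2 (0.16), Acnat2 (0.17) and Por (0.17). Genes that vary little are near each other by this measure whatever their pattern.

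Of 6 tested redox partners, which hand electrons to P450 enzymes, none passed by edgeR in the fit of all 17 libraries, with 2 at an unadjusted p under 0.05 and a median log2 fold change of 0.14. DESeq2 called 1 lower, as did edgeR with upper quartile scaling, with the filter of 1 CPM in 8 libraries, with surrogate variables, and without UCMSC-Exos 6, untreated HFD 2, 3 or 9, or untreated HFD 3 and 9 together. Limma voom called 3 higher and 1 lower. Without UCMSC-Exos 9, 3 of the 6 were called higher and none lower. In that fit 5823 of 16326 tested genes were called in either direction, against 3274 of 16238 with all 17 libraries. The 2 of smallest p were Pgrmc2, a heme-binding membrane protein, at -0.32 ± 0.11 (SE; edgeR adjusted p = 0.0551), and Cyb5a, cytochrome b5, at 0.33 ± 0.14 (SE; edgeR adjusted p = 0.11). Among 18 nuclear receptors and factors known to bear on Cyp2c genes, 7 rose and none fell, with a median of 0.21. Over all tested genes 9.73% were called higher and 10.4% lower. Hnf4a, the nuclear receptor that maintains hepatocyte identity, averaged 831 ± 186 CPM in UCMSC-Exos (SD, n = 8) and 521 ± 77.8 CPM in untreated HFD (SD, n = 9), a log2 fold change of 0.67 ± 0.13 (SE; edgeR adjusted p = 0.0023). Foxa3, a forkhead factor, rose by 0.96 ± 0.23 (SE; edgeR adjusted p = 0.00837). Bcl6, a repressor known in male mouse liver, rose by 0.99 ± 0.24 (SE; edgeR adjusted p = 0.00885).
Target genes of CAR and PXR moved both ways, with 6 of 17 tested higher and 3 lower and a median of -0.05. Gstm3 and Gsta1, both glutathione transferases, fell, with log2 fold changes of -1.14 ± 0.18 and -1.14 ± 0.19 (SE; edgeR adjusted p = 0.000349 and 0.000763). Ugt1a1, the bilirubin glucuronosyltransferase, rose by 0.41 ± 0.10 (SE; edgeR adjusted p = 0.00873).

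In the pathways these enzymes feed, more genes rose than fell, in lists chosen with earlier results of these data known. Over all tested genes 9.73% were called higher and 10.4% lower. Calls in either direction numbered 3274 of 16238 genes with all 17 libraries. They numbered 5823 of 16326 without UCMSC-Exos 9 and 2005 of 16398 without UCMSC-Exos 3. List counts from such fits therefore cannot be set against the shares of the main fit. Of 22 tested genes of arachidonate and linoleate epoxide metabolism 7 rose and 1 fell, with a median log2 fold change of 0.25. None was called lower without UCMSC-Exos 2, 3, 5, 7 or 8 or untreated HFD 1 or 7, and 2 were without UCMSC-Exos 9 or untreated HFD 3. Ephx2, soluble epoxide hydrolase, averaged 768 ± 106 CPM in UCMSC-Exos (SD, n = 8) and 541 ± 65.4 CPM in untreated HFD (SD, n = 9), a rise of 0.51 ± 0.10 (SE; edgeR adjusted p = 0.00235). Cyp4f14 and Cyp4f13, P450 enzymes of fatty acid omega-hydroxylation, rose by 0.92 ± 0.18 and 0.45 ± 0.10 (SE; edgeR adjusted p = 0.00186 and 0.00665).
Of 17 tested genes of bile acid synthesis 8 rose and none fell, with a median of 0.36, while 4 rose without UCMSC-Exos 3, 5 without UCMSC-Exos 2 or 5, and 12 without UCMSC-Exos 9. Cyp7b1, the oxysterol hydroxylase of the alternative route, averaged 350 ± 153 CPM in UCMSC-Exos (SD, n = 8) and 38.7 ± 12.8 CPM in untreated HFD (SD, n = 9), and rose by 3.17 ± 0.33 (SE; edgeR adjusted p = 1.34e-05). Acnat1, an acyltransferase, and Akr1c6, a hydroxysteroid dehydrogenase, rose by 0.63 and 0.61. Of 21 tested genes of retinoid metabolism 8 rose and 3 fell, with a median of 0.17. Without UCMSC-Exos 1, 2 or 3 these counts were 5 and 1, and 5 were also called higher without untreated HFD 1, 2, 6 or 7. Adh7 and Rdh7, both dehydrogenases of retinol, and Rbp4, its carrier in blood, rose by 0.56, 0.44 and 0.49. Among the 66 other tested genes with a Cyp symbol 30 rose and 8 fell, with a median of 0.41.

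Wider sets of liver genes, also chosen with earlier results known, were counted in the same way. Over all tested genes 9.73% were called higher and 10.4% lower. The counts for macrophage and sinusoidal endothelium markers were not far from these shares. Without UCMSC-Exos 9, 5823 of 16326 tested genes were called, against 3274 of 16238 with all 17 libraries, so list counts without that library stand beside more calls. UCMSC-Exos 9 had the lowest Cyp2c sum of its group, 725 CPM, and also its lowest sum of hepatocyte markers, 68600 CPM. Untreated HFD 3 had the lowest untreated Cyp2c sum, 809 CPM, and the highest untreated sum of hepatocyte markers, 106000 CPM. That library also held 14300 CPM of exocrine pancreas markers. How the 2 sums are linked was not tested. Male-biased liver genes rose in 17 of 20 cases with none lower (median 1.44), among them Cyp7b1, the serpin Serpina1e (3.69) and the steroid dehydrogenase Hsd3b5 (7.84). Hsd3b5 was near the floor in untreated HFD, at 0.27 ± 0.349 CPM (SD, n = 9) against 62.7 ± 47.7 CPM in UCMSC-Exos (SD, n = 8), so the size of its fold change is uncertain. Of 11 tested female-biased genes none rose and 3 fell (median -0.64): Cyp17a1 (-1.02), Cyp2a4 (-3.20) and Cyp2a22 (-0.94), all P450 enzymes; 5 fell without UCMSC-Exos 9. Hepatocyte markers rose in 10 of 12 cases with none lower (median 0.60). Pericentral markers rose in 9 of 17 cases and fell in 4 (median 0.47), with Cyp2e1 at 1.05, Slc1a2 at 0.88 and Axin2 at -0.59. Periportal markers rose in 10 of 18 cases and none fell (median 0.54), or in 6 without UCMSC-Exos 3 or 5, with Pck1 at 0.99, Hal at 1.5 and Cps1 at 0.89.
Of the 12 cholangiocyte markers none rose and 1 fell (median -0.96), or 9 fell without UCMSC-Exos 9, and the 1 call was lost in 14 of the 17 fits that left out 1 library. Their sum ran from 271 to 904 CPM in UCMSC-Exos and from 352 to 797 CPM in untreated HFD. Of 12 stellate cell and fibroblast markers none rose and 4 fell (median -0.64). Their sum was 723 to 2420 CPM in UCMSC-Exos, highest in number 9, and 1020 to 2620 CPM in untreated HFD. It was 2600 CPM in untreated HFD 9, the library with skeletal muscle markers. Among the 4 was Des, at 7.72 ± 3.67 CPM in UCMSC-Exos (SD, n = 8) and 85.1 ± 224 CPM in untreated HFD (SD, n = 9), so its untreated mean is uncertain. The count of 4 was 7 without UCMSC-Exos 9 or untreated HFD 5, 2 without UCMSC-Exos 8 or untreated HFD 1, 6 or 7, and 1 without UCMSC-Exos 1, 2, 3, 5, 6 or 7 or untreated HFD 9. Of 12 macrophage markers 2 rose and 3 fell (median -0.05), with 1 higher without UCMSC-Exos 3. Of 12 sinusoidal endothelium markers 2 rose and none fell (median 0.09), but the rises numbered 0 with upper quartile scaling, with no filter, with surrogate variables, and without UCMSC-Exos 1, 2, 3, 5, 7 or 8 or untreated HFD 1, 2, 4 or 6. They numbered 1 without untreated HFD 3, 7 or 9 and 4 without UCMSC-Exos 9, and 1 marker was lower without untreated HFD 3. Among B and plasma cell markers 3 of 8 rose and none fell (median 0.49). Of 6 tested genes listed as adipose markers 1 rose, Car3, and 3 fell, Pparg and Cidec among them (median -0.52). These calls do not measure fat tissue in the samples. Of the red blood cell markers 3 of 7 rose and none fell (median 0.95), or 6 rose without untreated HFD 3 and 5 without UCMSC-Exos 9. Few markers of other organs could be tested: 1 for exocrine pancreas, 4 for intestine and 1 for kidney tubule, none of which passed with all 17 libraries, and 2 for skeletal muscle, both lower. Without untreated HFD 9 neither muscle marker passed, and without UCMSC-Exos 1, 2, 3, 5, 6, 7 or 8 1 did. Leaving out untreated HFD 9 made the pancreas marker lower, leaving out UCMSC-Exos 9 made 1 intestinal marker lower, and leaving out either made the kidney marker higher. The part of any of these groups in the Cyp2c results was not tested.

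**Figure D5:**
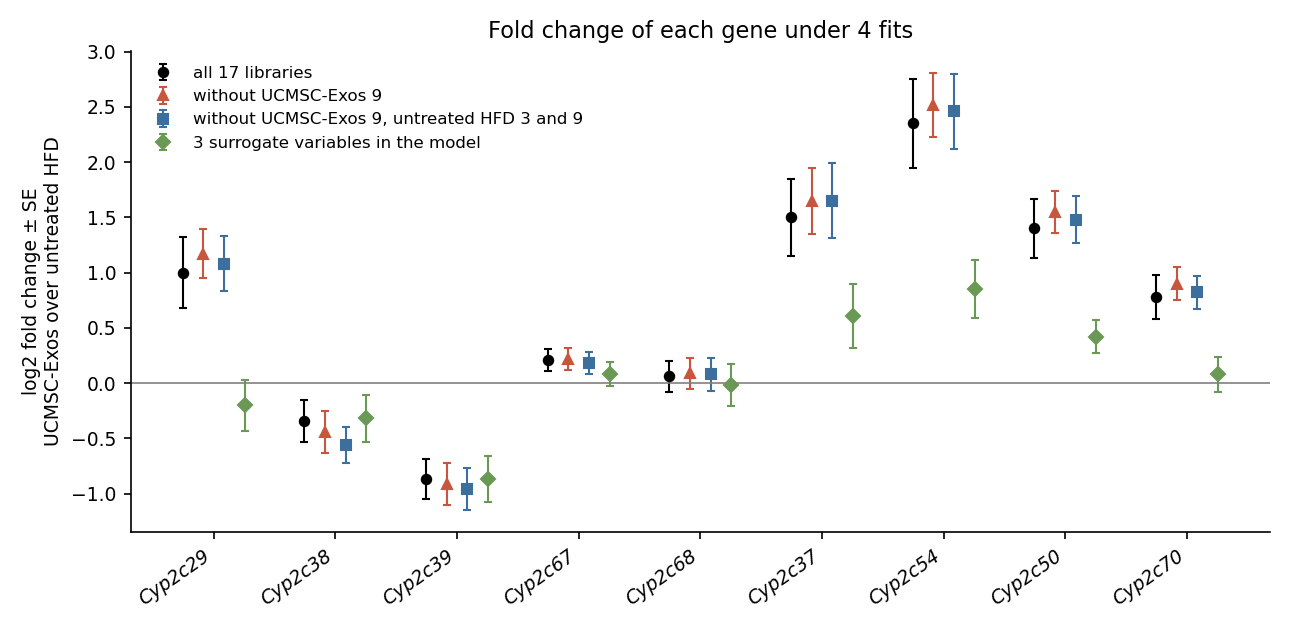
Log2 fold change with its SE, UCMSC-Exos over untreated HFD, for the 9 tested members in 4 fits: all 17 libraries, without UCMSC-Exos 9, without UCMSC-Exos 9 and untreated HFD 3 and 9, and with 3 surrogate variables. The first 3 fits lie close together, while with surrogate variables Cyp2c29 and Cyp2c70 are near 0 and Cyp2c39 stays at -0.87.

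The 5 rises did not pass in every model. With 3 surrogate variables, which take up variation shared across genes whatever its source, no member passed as higher by edgeR, and 2 had an unadjusted p under 0.05. The log2 fold changes then were 0.85 for Cyp2c54 (edgeR adjusted p = 0.0766), 0.61 for Cyp2c37 (edgeR adjusted p = 0.276), 0.42 for Cyp2c50 (edgeR adjusted p = 0.138), 0.08 for Cyp2c70 (edgeR adjusted p = 0.855) and -0.20 for Cyp2c29 (edgeR adjusted p = 0.712). Cyp2c39 still fell, by 0.87 (edgeR adjusted p = 0.0161). Cyp2c23 lost its call as well (0.33, edgeR adjusted p = 0.0895), as did Hnf4a (0.28, edgeR adjusted p = 0.116), Foxa3, Bcl6, Ephx2, Cyp4f14, Ugt1a1, Adh7, Rdh7, Slc1a2, Hal, Cps1, Cyp2a4 and Cyp2a22. In that model 966 of 16238 tested genes were called, in either direction. Called higher were 0 of 18 receptors and factors (5 at an unadjusted p under 0.05), 3 of 17 bile acid genes and 1 of 22 epoxide pathway genes. So were 1 of 21 retinoid genes, 10 of 20 male-biased genes and 4 of 12 hepatocyte markers. Without UCMSC-Exos 9 and untreated HFD 3 and 9, all 5 rises passed, at 2.46 for Cyp2c54, 1.65 for Cyp2c37, 1.48 for Cyp2c50, 1.08 for Cyp2c29 and 0.82 for Cyp2c70.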

How the data were processed

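The authors counted reads over GENCODE vM25 exons with featureCounts 2.1.1 in its paired mode, per the file headers, ignoring strand and leaving out reads that map to several places. The submitters' processing notes name fastp 1.3.3, HISAT2 2.2.1, Subread 2.0.2 and mm10; the 2 sources differ in the counter's version. Counts are whole reads per gene and were not normalized; both mates of a pair are counted. With strand ignored, antisense reads can be counted for a gene. Of 55401 genes, 55141 IDs matched a symbol. Columns were matched to samples by library name, and 1 per-sample column was left out.

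The deposited counts were fitted with edgeR 4.0.16 in R 4.3.3, using filterByExpr with a minimum count of 10, TMM scaling, a robust quasi-likelihood F test, two-sided, fitted to all 16238 genes kept, Benjamini-Hochberg adjustment over them and a threshold of 0.05. SE is the log2 fold change over the root of F. CPM uses the effective library size, and CPM per kb divides it by the deposited exon length of each gene. Log2 CPM for profiles and correlations used a prior count of 2. The spread between libraries sets the p-values, and the labels do not say how the samples were spread over cages or days. The most alike libraries, UCMSC-Exos 2 and 3, differed by 3.87 times the chi-square of sampling noise at the median, so none was counted as a repeat. The steps were tested on simulated counts.

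The members and the 24 lists of genes were chosen with earlier results of these data known. Named genes are all members and other tested Cyp2c genes, the 3 of smallest p among those that passed in each list (2 where none passed), the 3 nearest profiles of each member, and the tested genes in or next to the cluster; not all are printed. The alternatives tried were scaling by RLE or by the upper quartile, a filter of 1 CPM in 8 libraries or none, the replicate number as a block, 3 surrogate variables (sva 3.50.0), DESeq2 1.42.0, limma 3.58.1 voom with quality weights, leaving out each library in turn, and leaving out untreated HFD 3 and 9 with or without UCMSC-Exos 9. Transcript likeness used GENCODE vM21 transcripts.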

Additional observations from a re-analysis of the deposited data

Results flagged for a closer look

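In a check of 24 groups of library values for a single library far from the others, 2 were found, and chance alone would find about 1 in 20 groups. Untreated HFD 3 had the lowest Cyp2c38 level of its group, 23.8 CPM, where the group's median was 48.9 CPM; the same library held 14300 CPM of exocrine pancreas markers. Untreated HFD 5 had the highest Cyp2c70 level of its group, 459 CPM, where the group's median was 292 CPM, and it was also the highest untreated library for Cyp2c29, Cyp2c37, Cyp2c54 and Cyp2c50.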

How the results depend on the processing

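Of 297 values of members and other tested Cyp2c genes under the alternatives, 267 kept their direction and their side of the threshold, 21 lost a call, 7 gained one and 2 changed sign. With surrogate variables 966 genes passed against 3274, 0 members were higher, Cyp2c29 was at -0.20 and Cyp2c68 at -0.02; the cause was not tested. With voom and quality weights 7711 genes passed and 2 members were lower, with Cyp2c38 at -0.48 (limma adjusted p = 0.00871), and Cyp2c67 passed at 0.23 (limma adjusted p = 0.0426). Without UCMSC-Exos 9 and untreated HFD 3 and 9, 6716 genes passed and 2 members were lower. Leaving out 1 library gave 2005 (without UCMSC-Exos 3) to 5823 genes (without UCMSC-Exos 9), with 2086 without UCMSC-Exos 2, and 4 to 5 members higher and 1 lower. Without untreated HFD 3 and 9, Cyp2c29 was at 0.92 (edgeR adjusted p = 0.0795), and with no filter its adjusted p by edgeR was 0.0868. Replicate numbers did not pair the samples: 2 of 8 same-numbered pairs had a correlation of deviations over 0.1 (range -0.171 to 0.238), and 0 correlated best with their own number. With the replicate block 3027 genes and 4 members higher passed, Cyp2c29 was at 0.96 (edgeR adjusted p = 0.0806), and no other member changed its call. Without length scaling, shares in UCMSC-Exos and untreated HFD were 17.3% and 16.4% for Cyp2c29 and 23.9% and 17.1% for Cyp2c50, and in untreated HFD 4.94% for Cyp2c38, 15.9% for Cyp2c67 and 7.73% for Cyp2c68. Cyp2c40, at 119 and 65 reads in UCMSC-Exos and untreated HFD, was kept by the filter in 5 alternatives and passed in 0 of them.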
